A study of Botryllus schlosseri with 42 samples.

Results

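At stage B1 of the blastogenic cycle, 231 of the 50106 contigs of Botryllus schlosseri were at least 4-fold higher in fertile than in infertile colonies without having been so at stage A1. They were chosen by the ratio of group means, fertile over infertile, each mean with 5 normalized counts added. A contig was taken if this ratio was under 4 at A1 and at least 4 at B1, with a fertile mean of at least 50 normalized counts at B1. The 33 contigs of the study's table of candidate fertility genes were to be left out, but 0 of them met these conditions. In all, 955 contigs met the conditions for B1, of which 24.2% were under 4 at A1. A further 693 were at least 4 at both stages, and the other 31 belong to the table of candidate genes. Because the group means at A1 and B1 chose the contigs, their values at these stages are a description and are not tested.

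Botryllus schlosseri is a colonial ascidian, an invertebrate chordate that replaces all its bodies in repeated rounds of budding called blastogenesis. Adult zooids, primary buds and secondary buds live side by side and pass together through the stages A1 and A2, B1 and B2, C1 and C2, and D, when the zooids are resorbed in the takeover. Colonies are hermaphrodites that move in and out of fertility. In fertile colonies sperm matures in the testes of the zooids in the first stages of a cycle, oocytes ripen in the buds, and eggs are brooded in the zooid after ovulation. RNA therefore comes from 3 generations of bodies, from germ cells, follicle cells and body wall, and in fertile colonies possibly from brooded embryos.

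Whole colonies raised in the laboratory were sequenced as polyA-selected paired-end libraries, with 3 fertile and 3 infertile libraries at each of the 7 stages and 42 in all. The fertile group, labelled Hermaprhodite, consisted of the genotypes Fert801 and Fert841 and a pool of genotypes (MixFert), and the infertile group of Infert802, Infert001 and a pool (MixInfert), each present at every stage. By the study's methods the infertile pool included a genotype that is also one of the fertile ones, so group and genotype are not fully separated. No treatment or allele differs by label, and ages are not given. The deposited tables hold group means of normalized counts, from which whole read pairs per library were recovered. Contigs with a single solution took up 4616590 to 15813646 read pairs in a library, with a median of 9284719 in fertile and 10532787 in infertile libraries. Recovered libraries carry no genotype name. Within each group and stage they carry the numbers 1 to 3 in order of falling size factor, and a number does not mark the same genotype at different stages. All 231 contigs had values in all 42 libraries. Contigs of near-identical sequence may share reads. The values are counts divided by the size factor and are not corrected for contig length, so levels are compared between groups and not between contigs. In whole colonies, fewer cells of a type and less RNA per cell cannot be told apart.

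Markers of the gonad were used to describe the libraries. The 9 marker contigs all stand in the study's table of candidate fertility genes, which was drawn from these same libraries. Their separation by group was thus favoured in advance and is no check of the labels. Summed over 5 testis contigs, fertile libraries held between 4166 and 5795 normalized counts at A1 and infertile ones between 51.3 and 84.0. At B1 the fertile libraries held between 5167 and 11619, and the infertile ones between 64.9 and 118. Some libraries stood far from the others of their group. In fertile library 3 of stage A2 the testis sum was 510.2 and the sum of 4 egg and follicle contigs was 189, against at least 5093 and 5674 in the other fertile libraries of that stage. Both sums were still above every infertile library of A2, where the highest were 67.1 and 52.5. In infertile library 1 the testis sum was 813 at B2, 2000.3 at C1 and 2936 at C2, where the highest fertile library had 584. At B2 this sum was still below every fertile library, of which the lowest had 4114. The egg and follicle sum was at most 709 in every infertile library and at least 7482 in every fertile library from B1 on, and 0 of the 9 markers was without reads in all infertile libraries of any stage.

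The 231 contigs did not start from equality at A1. Their median ratio was 2.58 at A1 (quartiles 1.60 and 3.25) and 5.12 at B1 (quartiles 4.39 and 6.99), and 211 were already higher in fertile colonies at A1. At A1, 145 had a ratio of at least 2. Only 3 were at least 4-fold lower in fertile colonies there. Across all contigs the share with a ratio of at least 4 was 2.29% at A1 and 2.42% at B1. Contigs near a limit show how little separates inside from outside. Just inside at A1 were Bot_c16832 (ratio 3.98), Bot_rep_c54916 (3.97) and CAP3_round1_contig_3807 (3.97), and just outside were Bot_c6985 (4.02), CAP3_round1_contig_7706 (4.04) and CCTT26154.g1 (4.05). At B1, CAP3_round1_contig_6635 (4.0004), Bot_rep_c46321 (4.03) and Bot_c20865 (4.03) were just inside. CAP3_round1_contig_6826 (3.9994), Bot_rep_c56066 (3.997) and Bot_c6557 (3.99) were just outside. For the fertile mean at B1, Bot_rep_c46546 (50.1 normalized counts), CAP3_round1_contig_3173 (50.1) and Bot_rep_c52845 (50.6) stayed in, and Bot_c12516 (49.97), Bot_c6290 (49.9) and Bot_c16746 (49.3) stayed out.

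**Figure D1:**
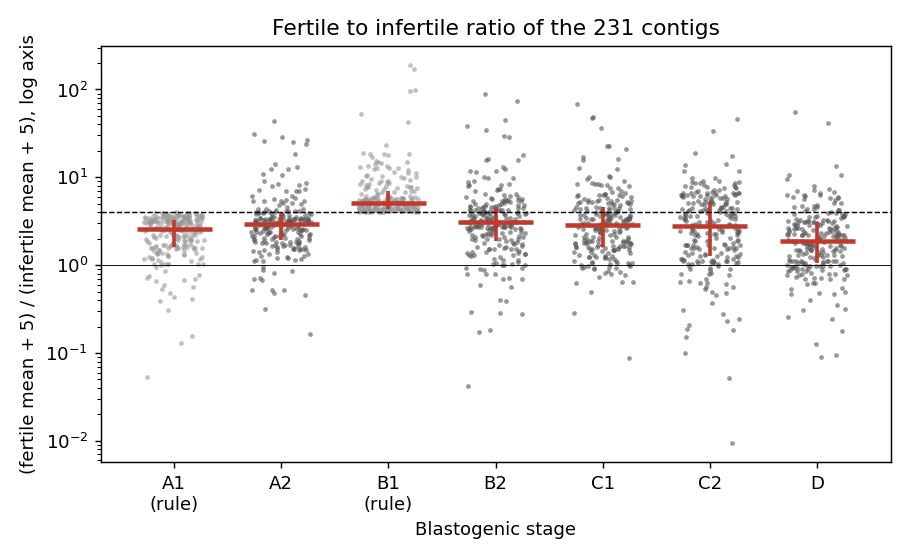
Ratio of group means, fertile over infertile, each with 5 normalized counts added, for the 231 contigs at the 7 stages on a log axis. Each point is a contig, the thick line is the median and the vertical bar spans the quartiles. The dashed line is a ratio of 4. A1 and B1 chose the contigs, and the medians are 2.58 at A1, 2.91 at A2, 5.12 at B1 and 1.90 at D.

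To see which group moved between A1 and B1, all 42 libraries were put on 1 set of size factors. On this scale the fertile level at B1 was a median 1.32 times that at A1, and the infertile level 0.632 times, after 5 normalized counts were added to each mean. Over 38541 contigs the medians were 0.998 and 1.01. The fertile level at least doubled for 47 of the 231 contigs (20.3%, against 1.52% of all contigs). The infertile level at least halved for 80 (34.6%, against 4.06%). Both happened for 10 contigs, and neither for 114. The infertile level was lower at B1 than at A1 for 198 contigs and the fertile level was lower for 51. Since the choice of contigs requires a rise of the ratio, these counts say only how it was shared between the groups. For most of the 231 contigs, then, the passage over a ratio of 4 was not a doubling of the fertile level.

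**Figure D2:**
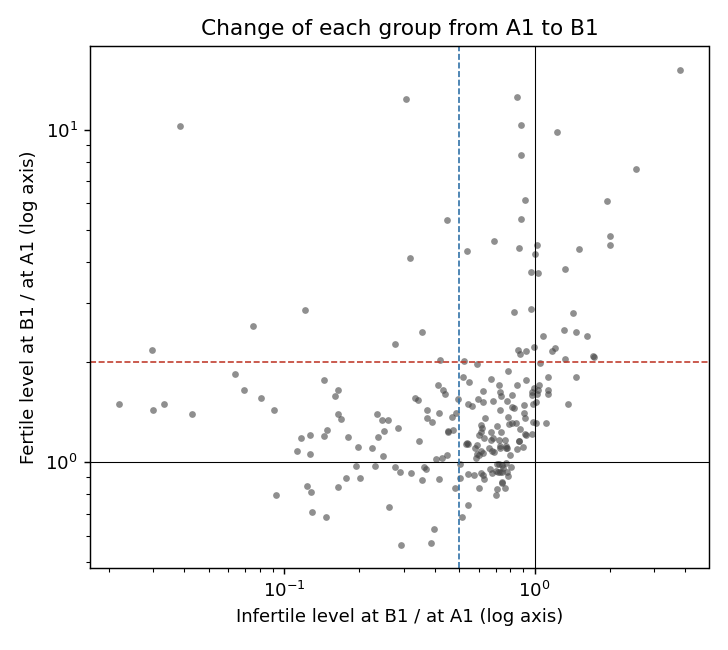
Level at B1 divided by the level at A1 for each of the 231 contigs, in infertile (horizontal) and fertile libraries (vertical), both on log axes and on 1 scale over 42 libraries. Points above the red dashed line at least doubled in fertile libraries (47) and points left of the blue dashed line at least halved in infertile libraries (80).

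At A1 a single infertile library held more counts than the other 2 infertile libraries together for 195 of the 231 contigs, and at B1 a single fertile library did so in its group for 135. At the 5 stages that did not enter the choice, these counts lay between 163 and 196 in infertile and between 117 and 186 in fertile libraries. With each library left out in turn, 161 to 203 contigs had a ratio of at least 4 at B1 and 9 to 69 at A1, where the choice set the count to 0 with all libraries in. Without each contig's own highest fertile library, 91 had this ratio at B1. Without its own highest infertile library, 138 had it at A1. Such an omission can only lower the ratio at B1 and raise it at A1. The fertile libraries lay entirely above the infertile ones for 142 of 231 contigs at B1 (61.5%, against 8.04% of all contigs tested). At A1 they did so for 47 of 224 (21.0%, against 7.75% of all contigs). The opposite order was found for 0 contigs at A1, against 6.37% of all contigs. At B1 the choice excludes that order and favours the first. The group means at A1 entered the choice as well, so the counts at both stages are a description only. In the median over the 231 contigs, fertile libraries stood at 73.2% to 104% of the fertile mean at B1 and infertile libraries at 8.43% to 17.7%. At A1 the infertile libraries stood at 11.4% to 41.0%. At 36 contigs at A1 and 31 at B1, a fertile library with at most 3 read pairs stood beside one with at least 50 normalized counts.

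**Figure D3:**
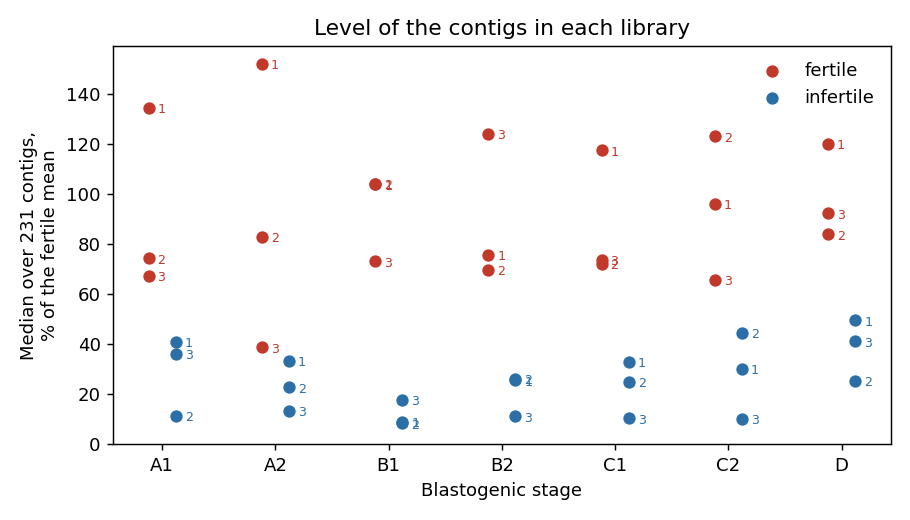
Level of the 231 contigs in each library, as the median over contigs of the library's normalized count in percent of the fertile mean, for fertile (red) and infertile (blue) libraries at each stage. The digits are library numbers, which are not shared between stages. All fertile medians lie above all infertile ones at each stage, with the smallest gap at A2, where fertile library 3 stands at 38.7% and infertile library 1 at 33.4%.

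The 5 stages that did not enter the choice show how far the difference extends over the cycle. At A2, before B1, 51 of the 231 contigs (22.1%) already had a ratio of at least 4, against 2.21% of all contigs. After B1 there were 79 at B2 (34.2%, against 2.15%), 72 at C1 (31.2%, against 1.3%), then 86 at C2 (37.2%, against 1.37%) and finally 34 at D (14.7%, against 0.996%). The median ratio was 2.91 at A2, lay between 2.81 and 3.07 from B2 to C2, and was 1.90 at D. At 1 or more of these stages 171 contigs reached 4, at all 5 stages 4 contigs did, and 60 reached it at B1 alone. For these counts over several stages the share of all contigs was not worked out, so they are a description only. The ratio was highest at B1 for 110 contigs and at C2 for 44. The choice excludes a highest ratio at A1 and favours one at B1, so these counts are a description only. These stages are other libraries of the same genotypes, so differences between genotypes and between fertile and infertile states cannot be told apart. The 693 contigs that were at least 4-fold higher at both A1 and B1 had median ratios of 10.2 at A2 and 6.48 at B2, but between 1.69 and 2.48 from C1 to D. At C1 and C2 the medians of the 231 contigs, 2.89 and 2.81, were thus the higher ones, and the difference between the sets was not tested.

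Tested one by one, 0 of the 231 contigs passed a 10% FDR at these stages with limma on log2(normalized count + 1), where few contigs of any kind did. Of all contigs tested, limma called 0% higher in fertile colonies at A2, C1 and C2, 0.0106% at B2 and 0.0422% at D, and 0% lower at any of them. With voom and with an intensity trend the count of the 231 was also 0 at each of these stages. At an unadjusted p under 0.05, stage A2 had 41 of 224 contigs tested higher in fertile colonies (4.02% of all contigs), stage B2 66 of 228 (2.99%), stage C1 50 of 225 (2.32%), stage C2 65 of 220 (4.27%) and stage D 52 of 213 (6.74%). Lower in fertile colonies at that level were 0 at A2 (2.03% of all contigs), at B2 (0.728%) and at C1 (1.54%). There were 2 at C2 (2.42%) and 4 at D (5.07%). With 3 libraries a group, the smallest 2-sided p of an exact permutation test is 0.1, so that test was left out. In the contigs tested the median log2 difference was 1.72 at A2, between 1.70 and 1.95 from B2 to C2, and 1.34 at D, and over all contigs it lay between -0.01 and 0.01. The libraries of a group are labelled as different genotypes or as a pool, and p-values measure the spread between these libraries.

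All 3 fertile libraries lay above all 3 infertile ones for 44 of the contigs at A2 (19.6%, against 6.93% of all contigs), and for 68 at B2 (29.8%, against 4.91%). Stage C1 had 34 (15.1%, against 4.39%), stage C2 66 (30%, against 7.21%) and stage D 58 (27.2%, against 10.9%). In the opposite order were 0 at A2 (6.09% of all contigs) and B2 (3.47%), 1 each at C1 (5.73%) and C2 (6.4%), and 4 at D (10.8%). These were Bot_c8797 at C1, CAP3_round1_contig_6813 at C2 and D, and CAP3_round1_contig_6588, Bot_c13560 and Bot_c49575 at D, named after their values were seen. Only contigs whose mean reached 10 normalized counts at the stage are counted here. With the fertile libraries above, 87 of the 231 contigs were apart at none of the 5 stages (37.7%, against 77.8% of 40652 contigs tested at 1 or more of them), and 3 were apart at all 5 (1.30%, against 0.118%). The 87 include 1 contig that was tested at none.

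**Figure D4:**
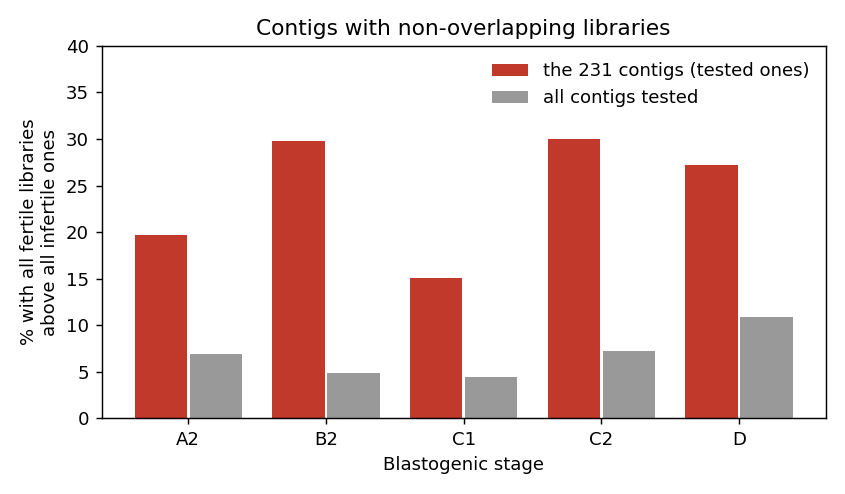
Percent of the 231 contigs (red, those tested) and of all contigs tested (grey) for which all 3 fertile libraries lay above all 3 infertile libraries, at the 5 stages that did not enter the choice. The red bars run from 15.1% at C1 to 30% at C2 and the grey bars from 4.39% at C1 to 10.9% at D.

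Whether the difference grew after B1 was tested directly, as the mean difference at B2, C1, C2 and D minus that at A2. The fit treats the libraries of a genotype at several stages as independent. With limma over 42 libraries 0 of the 231 contigs passed a 10% FDR in either direction, as did 0% of 38603 contigs in all. At an unadjusted p under 0.05, 0 of the 231 were higher after B1 (0.619% of all contigs) and 4 were lower (1.08%), among them the HCN channel homolog CAP3_round1_contig_654. The median was -0.18 on the log2 scale, against -0.03 over all contigs, and 100 of the 231 values were above 0. The label of a first rise at B1 describes the crossing of a limit at A1 and B1. Since no contig of any kind passed, the test cannot decide whether the difference grew from A2 on. The mean of the later stages also includes D, where the median ratio of the 231 contigs was 1.90.

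Homolog names came from the study's annotation sheets, which are cut short here. A row was found for 172 of the 231 contigs and a homolog name for 103, of which 82 had a human homolog. The 59 contigs without a row are named by their ID only. By words in the homolog names, 56 contigs fell into lists of sperm, germ cell, protease, matrix, lipid, transport, muscle, chromatin and ubiquitin genes. Contigs matching the Ciona gene LOC100177400 were also looked for and 0 were found. The lists were chosen with earlier results known, and 0 of their members passed a 10% FDR with limma in either direction at A2, B2, C1, C2 or D, so they are described by their levels. A homolog name does not show that the ascidian protein has the same role.

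The sperm list held 7 contigs, with a median log2 difference of 1.79 at A2, 3.56 at B2 and 2.24 at C1, but 0.45 at C2 and 0.70 at D. Without 3 contigs that entered through part of a homolog's name only, the medians were 2.05 at A2, 2.76 at B2 and 1.69 at C1. CAP3_round1_contig_7529 is a homolog of outer dense fiber protein 3B, of the family of proteins around the axoneme of the mammalian sperm tail. At A1 its 3 fertile libraries held 2017, 1540.3 and 1633 normalized counts and the infertile ones 493, 531 and 615. At B1 the values were 3098, 2095 and 1675 in fertile and 367, 348 and 448 in infertile libraries. The groups were thus apart at both stages, and the contig was chosen because its ratio went from 3.15 to 5.84. At B2 fertile libraries held 4147, 1238 and 2905, against 437, 278 and 209, a log2 difference of 3.06 (standard error 0.62, limma adjusted p = 0.722). By C2 the fertile libraries had only 309, 246 and 259, and infertile library 1, the one with the high testis sum, had 797. Without it the infertile libraries at C2 were at 118 and 81.0, below all fertile ones.

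TTLL11, a tubulin polyglutamylase that adds glutamate chains to microtubules of cilia and flagella in mammals, had the same course. In CAP3_round1_contig_2670 the fertile libraries held 415, 368 and 278 normalized counts at B1 against 9.25, 31 and 97.4, and 305, 196 and 436 at B2 against 44.9, 15.1 and 20.7. Its log2 difference at B2 was 3.56 (standard error 0.60, limma adjusted p = 0.722). The ratio was 4.82 at A2, 9.94 at B2 and 0.538 at C2, where infertile library 1 alone had 166 and the other 5 libraries at most 41.4. CAP3_round1_contig_1010 matches adenylate cyclase type 10, the soluble cyclase that activates sperm movement in mammals. At B1 it had 88.1, 69.5 and 56.6 normalized counts in fertile libraries, and no infertile library had over 3 read pairs, a difference of at least 12.4-fold. At A1 infertile library 1 had 38.9, above the lowest fertile library at 31.6. The membrane channel CAP3_round1_contig_654, a homolog of the cyclic nucleotide-gated HCN channels that carry pacemaker currents, belongs to the transport list and followed the same stages. Its ratio was 3.04 at A1, lay between 3.75 and 4.27 from A2 to B2, and was 1.39 at C1 and 0.912 at C2. At B2 the fertile libraries held 1816, 1066 and 2619.8 against 509, 255 and 522. Of the other members, Bot_rep_c49727 is a tubulin beta chain, and the 3 that entered through part of a name only are 2 myosin light chains and the glucose transporter Bot_c6021.

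Muscle contigs had the highest median ratios of all lists at B2, C1 and C2, at 15.8, 17 and 6.12 over 7 contigs. At B2 and at C1 7 of the 7 had a ratio of at least 4, against 2.15% and 1.3% of all contigs, and at D 0 had, against 0.996%. One of the 7, a plasminogen homolog, entered through a name only, and without it 6 of 6 had this ratio at B2 and C1. Bot_c744 is a homolog of the SERCA pump, which returns calcium to the sarcoplasmic reticulum so that muscle can relax. At B1 it held 332, 454.2 and 499 normalized counts in fertile and 77.1, 68.3 and 67.1 in infertile libraries. At C1 the fertile libraries held 4312, 1405 and 126 and the infertile ones 28.3, 48.8 and 28, so that even the lowest fertile library was above them. The log2 difference at C1 was 4.72 (standard error 1.25, limma adjusted p = 0.92). The fertile values at A1 were 476, 363 and 53.9, with library 3 below the infertile libraries at 101, 78.5 and 90.5.

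Tropomyosin, which lies along the actin filament and gates contraction, was matched by Bot_c2744. Its fertile libraries held 99.7, 178 and 178 normalized counts at B1 and 1326, 527 and 17.3 at C1, against 6.17, 4.14 and 0 and 8.08, 4.18 and 0 in infertile libraries. At B2 each infertile library had 3 read pairs or fewer, so the difference in group means was at least 53.9-fold, yet fertile library 1 had 3.34 and lay within the infertile range. Bot_rep_c48807, a myosin regulatory light chain of the kind found in heart ventricle in humans, had 8.34, 1238 and 655 at B2 in fertile and 0, 11.3 and 80.1 in infertile libraries. The alpha cardiac actin homolog Bot_rep_c36973 had 1.67, 842 and 586 against 18.3, 13.2 and 2.59 at the same stage. For tropomyosin, this light chain and actin, fertile library 1 was thus low at B2 while libraries 2 and 3 were high. At C1 tropomyosin and the light chain were lowest in fertile library 3, at 17.3 and 52.0, and SERCA was as well, at 126. The other myosin light chain, Bot_rep_c51567, had ratios of 15.8 at B2 and 17 at C1. CAP3_round1_contig_2133, a small heat shock protein related to alpha-crystallin B and to a body wall muscle protein of Ciona, was above all infertile libraries at A2, B2, C1 and C2. Its fertile libraries held 922, 889 and 739 at B2 against 111, 225 and 134, a log2 difference of 2.49 (standard error 0.47, limma adjusted p = 0.722). The plasminogen homolog CAP3_round1_contig_363 entered the muscle list through the name of a zebrafish homolog and is described with the proteases. Which bodies or brooded embryos the muscle RNA came from was not tested.

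**Figure D5:**
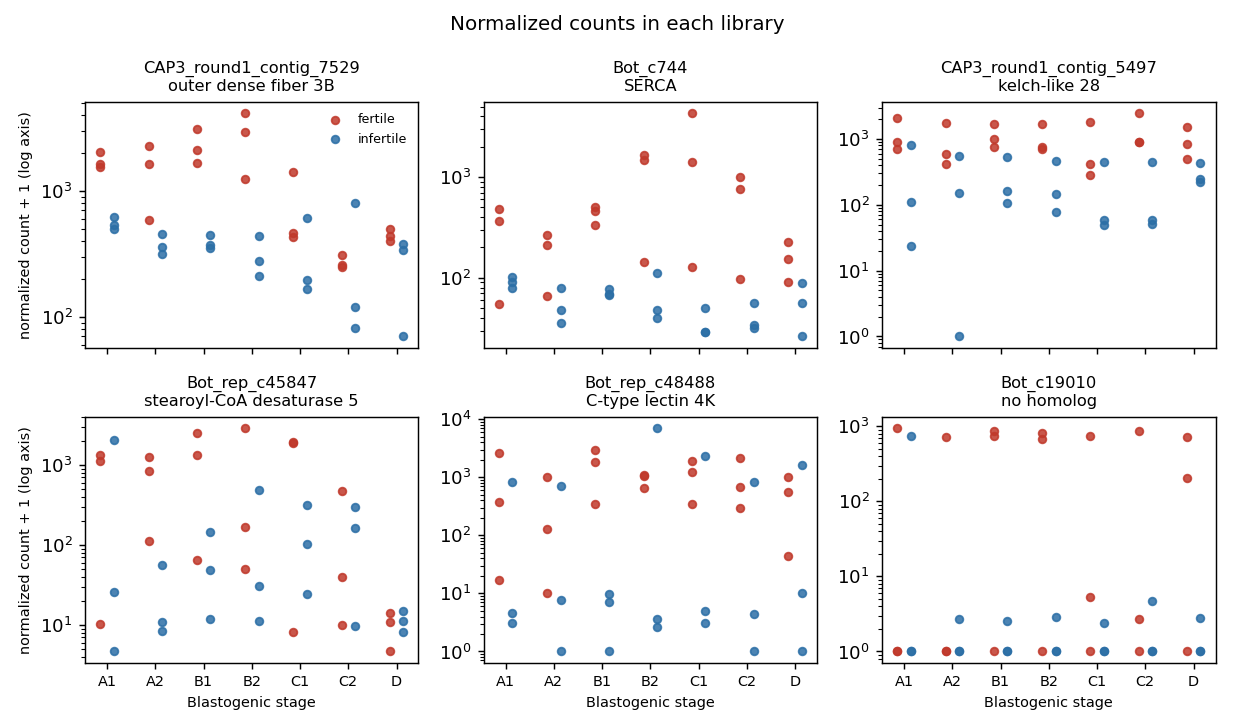
Normalized counts plus 1 in each fertile (red) and infertile (blue) library at the 7 stages for 6 contigs, on log axes that differ between panels. The outer dense fiber homolog is apart at A1 to B2, SERCA is highest in fertile libraries of B2 and C1, the kelch-like contig has 1 infertile library near the fertile ones at A1, and Bot_c19010 is either near 0 or, with 1 exception of 201 at D, above 600.

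Among genes of lipid metabolism, a list of 12 contigs, the median ratio was between 3.21 and 3.34 from A2 to C1, leaving out B1, and 2.32 and 1.93 at C2 and D. At A2, 7 of the 12 had all fertile libraries above all infertile ones, against 6.93% of all contigs and 19.6% of the 231, and 4 of these 7 are the 2 pairs of contigs named next. Stearoyl-CoA desaturase, which puts the double bond into saturated fatty acids, was matched by Bot_rep_c45847 and Bot_rep_c51081, and enoyl-CoA isomerase, needed for the oxidation of unsaturated fatty acids, by Bot_c10533 and Bot_rep_c43150. Contigs of the same gene can share reads, so each pair may count as a single gene. In Bot_rep_c45847 the fertile libraries at A1 held 1118, 1333 and 9.37 normalized counts and the infertile ones 2057, 3.65 and 24.7. Infertile library 1 was the highest of all 6 at A1, and the ratio of 1.18 there rests on it. At A2 the values were 844, 1272 and 111 against 9.96, 55.9 and 7.46, a log2 difference of 4.83 (standard error 1.15, limma adjusted p = 0.63). At B1 they were 2539, 1323 and 64.7 against 47.8, 145 and 10.8. At D all 6 libraries had at most 13.7. The isomerase Bot_c10533 went the same way, with 922, 1017 and 23.4 against 1873, 9.13 and 14.4 at A1 and 566, 965 and 41.6 against 16.6, 11.8 and 12.4 at A2. For these 4 contigs the ratio at A2 ran from 14 to 28.4, so they stood far above 4 before B1, and the ratio at A1 from 1.03 to 1.53. Without fertile library 3 at A2, the one with low gonad markers, limma called 5 of the 231 contigs at 10% FDR (0.773% of all contigs). They included both isomerase contigs and the plasminogen homolog, besides CAP3_round1_contig_7830 and Bot_rep_c49580.

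Other lipid genes moved less from stage to stage. Bot_rep_c50391, a homolog of hematopoietic prostaglandin D synthase, an enzyme of prostaglandin synthesis in mammals, had 1203, 1759 and 1133 normalized counts in fertile and 221, 145 and 565 in infertile libraries at B1. Its ratio was 3.76 at A1, 4.35 at B1 and 6.9 at C2. The lipid transporter ABCA3 (CAP3_round1_contig_5884), which in mammals loads surfactant lipids into lung vesicles, was apart at A1, with 1196, 1565 and 1017 in fertile against 396, 288 and 415 in infertile libraries. At B1 it held 1908, 1907 and 885 against 383, 304 and 439. At C2 the ratio was 1.12. The estradiol dehydrogenase homolog Bot_c2901 was also in the list.

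Several contigs, picked out after their values were seen, kept a difference through the cycle with 1 infertile library far above the other infertile ones. The pattern is clearest in the kelch-like homolog CAP3_round1_contig_5497, of a family of adaptors for ubiquitin ligases. At B1 its fertile libraries held 754, 1693 and 992 normalized counts and the infertile ones 159, 106 and 541. At A1 they held 2072, 911 and 705 and 23, 111 and 799.8, so that infertile library 3 lay within the fertile range. At C2 the values were 888, 2487 and 889 against 446, 57.4 and 50.3, a log2 difference of 3.51 (standard error 0.94, limma adjusted p = 0.736). The ratio was 3.9 at A1, 4.21 at B1 and 7.52 at C2. Bot_c22268, a homolog of the oocyte-specific linker histone of the mouse, had 364, 133 and 218 in fertile and 8.84, 20.1 and 230.3 in infertile libraries at A1. At C2 it had 291, 417 and 284 against 126, 16.7 and 8.38. The serine protease Bot_c736, related to matriptase, had 711, 408 and 286 against 14.1, 38.3 and 337 at A1, and 578, 867 and 383 against 244, 20.4 and 41.9 at C2. In these 3 contigs the high infertile library was library 3 at A1 and B1 and library 1 at A2, B2, C1 and C2. Without infertile library 1 at C2, limma called 15 of the 231 contigs at 10% FDR (0.435% of all contigs), and the kelch-like contig, the linker histone and this protease were among them. Without infertile library 3 at D, 15 were called higher (0.916% of all contigs) and 2 lower (0.832%).

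The same library pattern was found in Bot_rep_c50307, a ligand of the transforming growth factor beta family by its Ciona homolog, a secreted signal. Fertile libraries held 5505, 2627 and 1963 normalized counts at A1 and 4616, 4649 and 3306 at B1, and infertile libraries 240.5, 399.8 and 2737 and 565, 513 and 1864. CAP3_round1_contig_7377, which matches an uncharacterized Ciona protein, had 19.5, 327 and 1733 in infertile and 3381, 2199 and 1668 in fertile libraries at A1. The lamin-B receptor homolog CAP3_round1_contig_5499, a protein of the inner nuclear membrane that also has sterol reductase activity in vertebrates, was steadier. It was apart at all 5 stages outside the choice. At C2 its fertile libraries held 1026, 1819 and 648 and the infertile ones 315, 159 and 207, a log2 difference of 2.28 (standard error 0.51, limma adjusted p = 0.736). Apart at all 5 stages were also CAP3_round1_contig_6635, with no homolog, and Bot_c5746, which matches a mannose receptor of Ciona, both named after their values were seen. Bot_c5746 held 119, 157 and 149.6 in fertile and 29.4, 5.55 and 5.59 in infertile libraries at C2.

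Of the remaining chromatin and cell division genes, Bot_c3419 and the B-type cyclin Bot_c8121 had ratios of 2.94 and 3.04 at A1 and 4.04 and 4.15 at B1. The human match of Bot_c3419 is ASPM, which organizes spindle poles, but its Ciona match is a calmodulin-binding transcription activator 2-like protein. At B1 the cyclin held 33.2, 60.1 and 64.7 normalized counts in fertile and 3.08, 4.14 and 19.5 in infertile libraries. The list of 4 contigs had a median ratio between 2.32 and 3.97 at the 5 other stages. In the ubiquitin list of 5, Bot_rep_c50685, a homolog of the conjugating enzyme UBE2D1, held 90.7, 153 and 39.8 in fertile and 180.4, 292 and 14.4 in infertile libraries at A1. By B1 the values were 208, 111 and 80.9 against 37, 14.5 and 15.2, and at C1 148, 109 and 65 against 13.5, 4.18 and 6.46, a log2 difference of 3.64 (standard error 0.54, limma adjusted p = 0.92). The fertile mean of this contig was thus the lower one at A1, where the libraries of the groups overlapped. At B1, B2 and C1 all its fertile libraries lay above all infertile ones. A second contig of the same enzyme family, Bot_rep_c43755, overlapped at B1, with 61.5, 212 and 229 against 1.54, 0 and 95.2. The kelch-like Bot_c8703 had 93.1, 50.7 and 40.5 in fertile and 4.63, 4.14 and 10.8 in infertile libraries at B1.

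The germ cell list held a single contig, Bot_rep_c50536, a homolog of gametocyte-specific factor 1, which acts with piRNAs to silence transposons in the mouse germ line. At B1 fertile libraries held 1474, 1909 and 280.5 normalized counts and infertile ones 179, 91.1 and 115. At A2, B2, C1 and C2 infertile library 2 was high, with 2813, 2327, 1498 and 3178 normalized counts, while the other infertile libraries of these stages had at most 183. The ratios at these stages lay between 0.873 and 1.41. At D, where no infertile library was high, the fertile libraries held 1289, 163 and 585 against 59, 105 and 160.4 and were apart.

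Proteases, a list of 7 contigs of secreted and membrane-bound enzymes, had a median ratio of 7.01 at A2, 9.99 at B1 and between 2.86 and 3.84 from B2 to D. Bot_rep_c34931, a homolog of the digestive enzyme carboxypeptidase A2, varied widely between libraries of a group, with 4039.9, 708 and 99.8 normalized counts in fertile and 881, 43.5 and 132 in infertile libraries at B1. The groups overlapped there and at every other stage. The plasminogen homolog CAP3_round1_contig_363, of a protein whose active form dissolves fibrin in mammals, held 259, 580.0 and 1721 against 72.5, 103 and 60.6 at B1. Its groups were apart there, and at A2 with 564, 258 and 60 against 34.8, 25.4 and 29.8. CAP3_round1_contig_5699 matches human ovochymase-2, named for an egg protease first known from frogs, but a suppressor of tumorigenicity 14-like protein in Ciona. At B1 its fertile libraries held 171, 328 and 0 and the infertile ones 3.08, 12.4 and 0, and at A1 infertile library 1 had 223, so that the group ratio there was 1.6. A fertile library without any read of this contig was found at 6 of the 7 stages.

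In the list of matrix, lectin and adhesion genes, 14 contigs, the median ratio lay between 2.43 and 3.70 at the 5 stages outside the choice, and at D 7 of the 14 were apart, against 10.9% of all contigs and 27.2% of the 231. At A2, B2 and C1 2 of the 14 were apart, against 6.93%, 4.91% and 4.39% of all contigs and 19.6%, 29.8% and 15.1% of the 231. At C2 3 of 13 were, against 7.21% of all contigs and 30% of the 231. Only at D was the share of the list above that of the 231. Bot_rep_c48488 and CAP3_round1_contig_5452 both match human C-type lectin 4K, a sugar-binding receptor of immune cells, and had nearly the same course as each other and as 454_debris_c791, which has no homolog. These contigs had the highest ratios of all 231 at B1, at 172, 191 and 99.7. In Bot_rep_c48488 the fertile libraries at B1 held 2946, 339.7 and 1834 normalized counts and the infertile ones 6.17, 0 and 8.66. For CAP3_round1_contig_5452 each infertile library had 3 read pairs or fewer, and the difference was at least 222-fold. At every other stage a single infertile library was high. At B2 the infertile libraries of Bot_rep_c48488 held 1.66, 7079 and 2.59 and the fertile ones 1056, 648 and 1087, so that infertile library 2 was the highest of all. At D they held 1652, 0 and 9.16 against 43.7, 1028 and 567. Outside B1 the ratio of this contig ran from 0.395 at B2 to 3.74 at C2. B1 was thus the single stage at which all 3 infertile libraries were low. Without infertile library 2 at B2, limma called exactly these 3 of the 231 contigs at 10% FDR (0.0185% of all contigs). Bot_c2508, without a homolog, was 804, 265 and 798 against 46.3, 31 and 6.49 at B1, and again a single infertile library was high at A1, A2, B2, C1, C2 and D.

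P-selectin, an adhesion protein of vessel walls and platelets, was matched by CAP3_round1_contig_4198, with 334, 1241 and 1602 normalized counts in fertile and 117, 298 and 128 in infertile libraries at B1. The P-selectin homolog in the study's table of candidate genes is a different contig, which did not meet the conditions of the choice. The semaphorin-3C homolog CAP3_round1_contig_2477, of a family of secreted guidance signals, had 1729.9, 557 and 701 against 10.8, 12.4 and 297 at B1. From a ratio of 5.98 at B2 it went to 1.27 at C1 and 0.246 at C2, where the infertile libraries held 671, 307 and 11.2 and the fertile ones 55.2, 35.6 and 141. Infertile library 1, the highest there, is the one with the high testis sum, but infertile library 2 lay above all fertile libraries as well. In the transport list, CAP3_round1_contig_5237, related to regulators of calcium-activated chloride channels, had 412, 298 and 229 against 157, 10.3 and 32.5 at B1. At A1 the ratio was 1.35.

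Some contigs were either present or absent in a library. Bot_c19010, with no homolog, held 948, 0 and 0 normalized counts in the fertile libraries of A1 and 743, 0 and 0 in the infertile ones. At B1 the fertile libraries held 736, 854 and 0 and at B2 812, 0 and 674. Outside A1 it had 3 read pairs or fewer in each infertile library. The difference was then at least 40.8-fold at A2, 91.8-fold at B1, 80.7-fold at B2 and 50-fold at D, although at least 1 fertile library had no read at each of these stages. The single infertile library at A1 with 743 kept the contig under a ratio of 4 there. Bot_c32771, which matches caspase-1 of Ciona, a protease of inflammation and cell death, had the same libraries on and off, with 301, 0 and 0 and 221, 1.83 and 0 at A1 and 234, 398 and 0 and 0, 0 and 0 at B1. Both contigs, a second caspase-1 match (Bot_c30279) and CAP3_round1_contig_5639, which has no row, were the 4 with a ratio of at least 4 at all 5 other stages. Bot_rep_c54904 held 442, 659 and 2.7 in fertile and 6.17, 0 and 0 in infertile libraries at B1, and 679, 0 and 0 in infertile libraries at A1. For Bot_c21304 the fertile mean at B1 rested on a single library, with 6.65, 5.63 and 372.

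The contigs with most counts in fertile colonies at B1 were partly of this kind. 454_debris_rep_c1062 matches a hypothetical protein from the transcribed spacer of ribosomal RNA in the mouse, and so may not be a protein-coding gene. It held 31264, 13439.6 and 18204 normalized counts in fertile and 6268, 2018 and 1493 in infertile libraries at B1, and at C2 6634, 1746 and 2579.9 against 13103, 6553 and 4599. Bot_rep_c35469, without a row, held 8048, 5861 and 28.1 in fertile and 10164, 3.65 and 16.4 in infertile libraries at A1, and 12007, 12193 and 64.7 and 1860.2, 2031 and 13 at B1. CAP3_round1_contig_6588 is a homolog of the beta-crystallins, structural proteins of the vertebrate eye lens that have a single-domain relative in Ciona. At A1 its infertile libraries held 65.4, 557 and 5683 and the fertile ones 152, 149 and 661, and at B1 they held 0, 623 and 1563 and 1231, 154 and 12119.8. Both means rest on 1 library each, and at D the direction was the opposite, with 120.3, 201 and 169 in fertile and 2385, 982 and 2167 in infertile libraries, a log2 difference of -3.42 (standard error 0.44, limma adjusted p = 0.199). Of the other contigs without a row, CAP3_round1_contig_6899 held 1138, 2545 and 8209 against 702, 103 and 206 at B1 and had a ratio of 12.5 at A2. In Bot_rep_c52949 fertile library 3 held the larger part at B1, with 1243, 603 and 7638 in fertile against 551, 759.7 and 784 in infertile libraries.

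The contigs with the smallest p at a single stage, picked out after their values were seen, show how far single contigs went without passing the test. At A2 this was Bot_c10771, which matches human acrosin, the protease of the mammalian sperm head, but a transmembrane protease serine 9-like protein in Ciona. Its fertile libraries held 57.4, 38.1 and 25.4 normalized counts and the infertile ones 8.3, 5.08 and 4.97, a log2 difference of 2.49 (standard error 0.44, limma adjusted p = 0.365). Even fertile library 3, with its low testis sum, was above all infertile libraries here. At C2 it was Bot_c4338, which matches a glutathione transferase of zebrafish, a detoxifying enzyme. Its fertile libraries held 62.1, 85.5 and 59.8 against 3.46, 1.85 and 5.59, a log2 difference of 3.98 (standard error 0.42, limma adjusted p = 0.17). At B2 it was Bot_c7158, which matches an uncharacterized Ciona protein, with 283, 186 and 332 in fertile and 29.9, 37.8 and 15.5 in infertile libraries. At D it was the beta-crystallin homolog given above, which was lower in fertile colonies, followed by a contig that was higher. This Notch 4 homolog, Bot_c4751, of a family of receptors for signals between neighbouring cells, had 16.4, 43.5 and 25.9 in fertile and 1.79, 0 and 0 in infertile libraries and a log2 difference of 4.29 (standard error 0.56, limma adjusted p = 0.199).

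Across the 42 libraries the 231 contigs shared a course only in part. The correlation of a contig with their median profile, on log2 values of 1 common scale, had a median of 0.597 (quartiles 0.435 and 0.700), and over all 38603 contigs a median of 0.0255. The points share libraries and genotypes, the 231 contigs define the profile themselves, and the values are a description. Outside the set, the contigs most like the median profile were CAP3_round1_contig_2768, a homolog of neurotrypsin (0.917), Bot_c15916 (0.899), CAP3_round1_contig_707 (0.894), the DNA replication factor MCM10 homolog CAP3_round1_contig_737 (0.890) and Bot_rep_c46208, which matches a histone methyltransferase (0.886).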

How the data were processed

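Poly(A) RNA of whole colonies was sequenced in 42 libraries. The authors trimmed the read pairs, aligned them to an assembly of expressed sequence tags with Bowtie 0.12.7 and counted them per contig with SAMtools 0.1.18. The deposited signal values are group means of these counts, divided by size factors of the 6 libraries of a stage. The same tables hold the authors' fold changes, log2 fold changes, p-values and adjusted p-values, which were not used. Because a group mean is a sum of whole read pairs of 3 libraries, each pair counted as 2 reads, the counts of the libraries could be recovered. A single solution was found for at least 99.7% of contigs in each of 14 group columns, and 0 of 14000 decoy values were solved. The number of read pairs in a library, 4616590 to 15813646 on contigs with a single solution, limits the precision at low counts.

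At each stage the contigs whose mean reached 10 normalized counts were compared with limma 3.58.1 (R 4.3.3) on log2(normalized count + 1), with Benjamini-Hochberg adjustment over all contigs tested and a 10% FDR. A fold change on this scale understates the change of low contigs. The script was tested on simulated data. The change over the cycle was fitted on 42 libraries with 1 set of size factors. Where a group had 3 read pairs or fewer in each library, a fold is a lower bound set at 3 read pairs per library. A contig was called apart when the values of the groups did not overlap.

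The contigs, the lists and the tests were chosen with earlier results of these data known. Contigs named in the text are those with the 8 highest fertile means and the 8 highest ratios at B1, up to 4 of each list by fertile mean at B1, the 3 nearest to each limit on either side and the 5 with the most similar profile. Others were chosen after their values were seen. Homolog names are those of the study's annotation, in which rows depend on rank, and no sequence is printed since none was used here. Alternatives were other pseudocounts, filters, scalings, voom, a 5% FDR, each library left out, and an intensity trend chosen after seeing the data.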

Additional observations from a re-analysis of the deposited data

Results flagged for a closer look

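For 2 of the 231 contigs the groups did not overlap in opposite directions at different stages (0.866%, against 0.799% of 40652 contigs tested at 1 or more of the 5 stages). These shares are nearly the same, so the count is nothing particular to the 231 contigs. In CAP3_round1_contig_6813, without a homolog, the log2 difference between fertile and infertile libraries was 1.96 at B2, -1.97 at C2 and -1.71 at D. In Bot_c13560, which matches an uncharacterized Ciona protein, it was 2.16 at B2 and -1.75 at D. The differences between the stages were not tested, and 0 of these values passed a 10% FDR with limma.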

How the results depend on the processing

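The count of contigs that limma called higher in fertile colonies stayed at 0 at A2, B2, C1, C2 and D with pseudocounts of 0.5 and 5, a minimum mean of 50, no minimum, scaling by total read pairs, voom, a 5% FDR and an intensity trend. The count was also 0 for the change from A2 to the later stages in all 5 alternatives run. Leaving out 1 library gave 0 to 5 at A2, 0 to 3 at B2, 0 at C1, 0 to 15 at C2 and 0 to 15 at D. The highest counts came without fertile library 3 at A2, infertile library 2 at B2, infertile library 1 at C2 and infertile library 3 at D, and 1 contig, Bot_c5120, was called without infertile library 1 at A2 (0.112% of all contigs). The cause was not tested. Of the 231 contigs, 171 had a ratio of at least 4 at 1 or more stages other than A1 and B1, 185 when 1 instead of 5 was added to both means, and 225 with a ratio of at least 2. The matching shares of all contigs were not worked out. No paired analysis was possible because the fertile and infertile groups share no genotype or replicate number in the labels, and the libraries recovered from group means cannot be tied to a genotype by name. Limits are the 3 libraries a group and the reuse of the same genotypes at all stages.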
